A study of Danio rerio with 4 samples.

Results

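Axon guidance ligands and receptors were followed on 4 single-colour oligonucleotide arrays of sorted zebrafish retinal cells. Member probes were those whose gene name in the scanner files, or whose current symbol through a RefSeq accession, began with sema, plxn, nrp1, nrp2, ntn, dcc, unc5, slit, robo, epha, ephb, efna or efnb. This gave 41 of the 21495 probes and 36 of 8751 named genes. The gene unc50 entered by its letters only: it is not an Unc5 receptor, it was left out of all counts, and its difference was -0.22 ± 0.05 (log2, SE). Of the other 35 genes, 20 encode ligands (6 semaphorins, 2 netrins, 2 slits, 6 ephrin-A and 4 ephrin-B genes) and 15 encode receptors (4 neuropilins, 1 plexin, 1 Unc5 receptor, 4 Robo receptors, 2 EphA and 3 EphB genes). No member probe carried the name dcc.

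Progenitors that arise from Muller glia were sorted as GFP-positive cells from retinas of the 1016 tuba1a:gfp line, 4 days after injury by a needle of 30 gauge (n = 2 arrays, from fish aged 7 and 8 months). Muller glia, the radial glia of the retina, were sorted as GFP-positive cells from uninjured retinas of gfap:gfp fish (n = 2 arrays, fish of 7 months). Both groups carry a GFP transgene, but the promoter that selects the cells and the injury differ together, so their effects cannot be told apart. The samples are called duplicates. The stated ages differ between the progenitor arrays, which points to separate fish there, but nothing says so for the glia arrays. The p-values rest on array-to-array spread alone, and that spread may be technical, at least in part.

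The 75th percentile of the processed signal was 4816 and 4899 on the progenitor arrays and 4289 and 4455 on the glia arrays. Fewer spots were well above background on the progenitor arrays (74.7% and 71.7%) than on the glia arrays (79.1% and 82%). Log2 signals correlated at r = 0.997 between arrays of the same group and at 0.980 to 0.981 between groups. Among the labelled cell type's markers, gfap was higher in progenitors on all 4 of its probes, and glula, the glutamine synthetase of Muller glia, did not differ past the threshold (-0.13 ± 0.04, log2). Of 9 measured Muller glia markers, 4 were higher (44.4%, against 27.5% of all genes), 2 were lower (22.2%, against 40.4%) and 3 did not pass. The regeneration factor ascl1a was higher by 5.31 ± 0.07.

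Guidance cues are secreted or membrane-bound ligands that steer growing axons, migrating cells and sprouting vessels by attraction or repulsion. Class 3 semaphorins bind neuropilins, which lack a signalling domain of their own and act together with plexins, while class 4 and class 6 semaphorins bind plexins directly. Netrins signal through DCC and Unc5 receptors, slits through Robo receptors, and ephrins through Eph receptor tyrosine kinases, with signals passing in both directions across the contact between cells. In the retina these systems are best known for guiding ganglion cell axons and ordering the retinotectal map, and several members also act in blood vessels.

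All 4 neuropilin genes and plxnd1 were higher in progenitors, whereas 11 of 17 tested ligand genes were lower and 1 was higher, on values scaled to each array's 75th percentile. That is a share of 64.7% lower against 40.4% of all genes. With normexp background correction nrp2a, nrp2b and plxnd1 were called, and the differences of nrp1a and nrp1b lay just below 0. Under normexp 3 of the 17 ligands were lower, against 16.3% of all genes, so that count is near the background. Scaling on spike-in controls adds 1.097 to every difference and made 92.5% of all genes higher, 16 of the 17 ligands among them, with 0 ligands lower. The largest increase was that of nrp2b (4.43-fold) and the largest decrease that of efnb2a (2.45-fold). Across all classes 8 genes were higher, 13 lower and 11 not called among 32 tested (limma, Benjamini-Hochberg adjusted p below 0.05 over 16596 probes). That is 65.6% called, against 68.0% of all 7080 genes tested, so the overall count is close to the background. By direction, 25.0% of tested guidance genes were higher and 40.6% lower, against 27.5% and 40.4% of all genes.

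Split by role, 1 ligand was higher and 11 were lower of 17 tested, with a median difference of -0.33 on the log2 scale. Of 15 receptors, 7 were higher (46.7%), 2 were lower (13.3%) and 6 did not pass, with a median of 0.19. Of all genes, 27.5% were higher and 40.4% lower. The median of all genes tested was -0.11. The ligand median lay 0.22 below that of all genes, a gap that scaling by 1 constant an array cannot change. The intensity trend and the replicate block cannot change it either. Over the other alternatives this gap ran between 0.13 (mean of probes) and 0.28 (quantile normalization). It was 0.17 without progenitor replicate 2 and 0.20 with normexp background correction. At 2-fold or more, 3 of the 32 tested guidance genes were higher and 1 was lower. Of all 7080 genes 545 (7.70%) and 283 (4.00%) were, so both counts are near the background. Without neuropilins and plxnd1, the other 10 receptors had 2 higher and 2 lower genes (20.0% each) and a median of -0.11. The median of all 15 receptors depended on the processing. With normexp background correction it was -0.12 and lay 0.09 above that of all genes, with 11 of 15 receptors and 4828 of 7080 genes below 0. The receptor median was -0.035 with median scaling, with 7 of 15 receptors lower against 60.5% of all genes. It was 0.09 with quantile normalization, with 6 of 15 lower against 39.0% of all genes. It was 1.28 with spike-in scaling, with 0 lower against 2.27% of all genes.

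**Figure D1:**
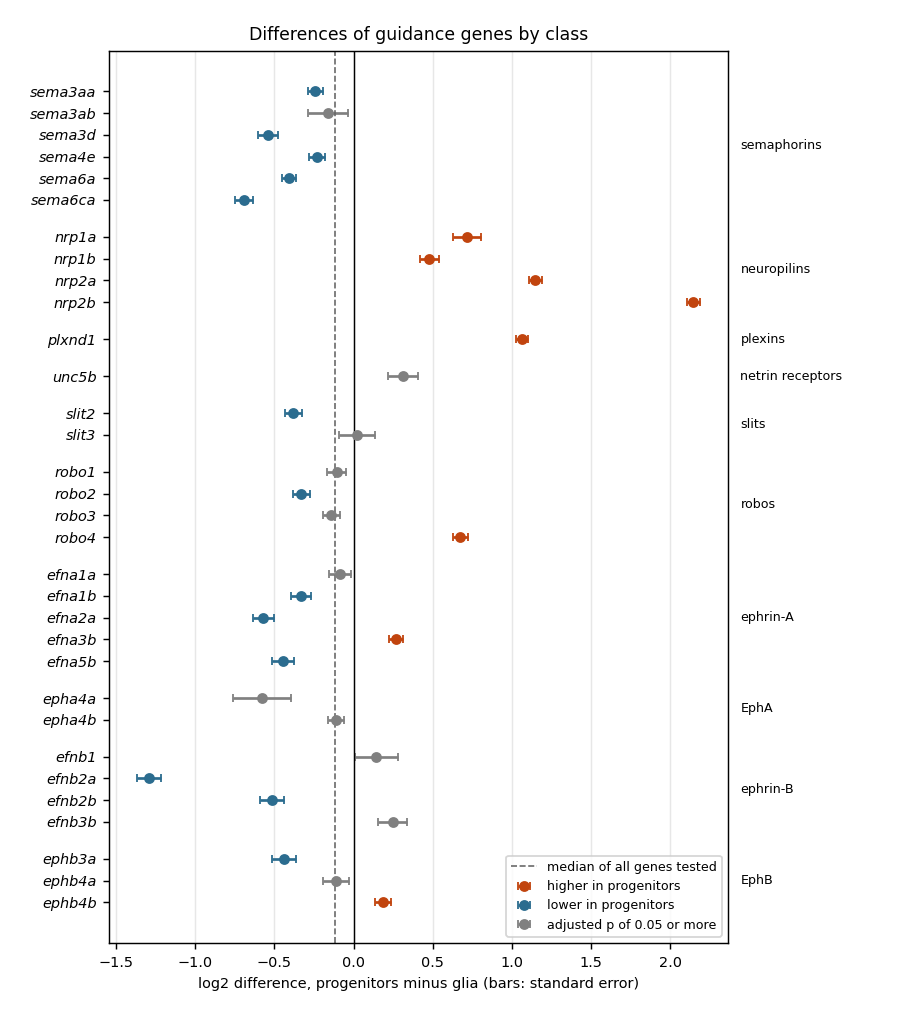
Log2 difference, progenitors minus glia, for the 32 tested guidance genes in order of ligand and receptor class, with limma standard errors as bars (n = 2 arrays a group, scaled to the 75th percentile). All 4 neuropilins and plxnd1 lie right of 0 and all 6 semaphorins left of it, the semaphorins lying right of it with spike-in scaling; the dashed line is the median of all genes, -0.11.

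Replicate arrays were close for these genes. Among the 32 tested, the median gap was 0.07 log2 units between the progenitor arrays and 0.08 between the glia arrays, and the widest gaps were 0.42 (epha4a) and 0.36 (efnb1). All 32 were well above background on all 4 arrays and none of their spots was saturated. Both progenitor arrays lay above both glia arrays for 10 genes and below them for 18, and the groups overlapped for 4. Across all genes tested 34.9% lay wholly above and 53.1% wholly below.

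**Figure D2:**
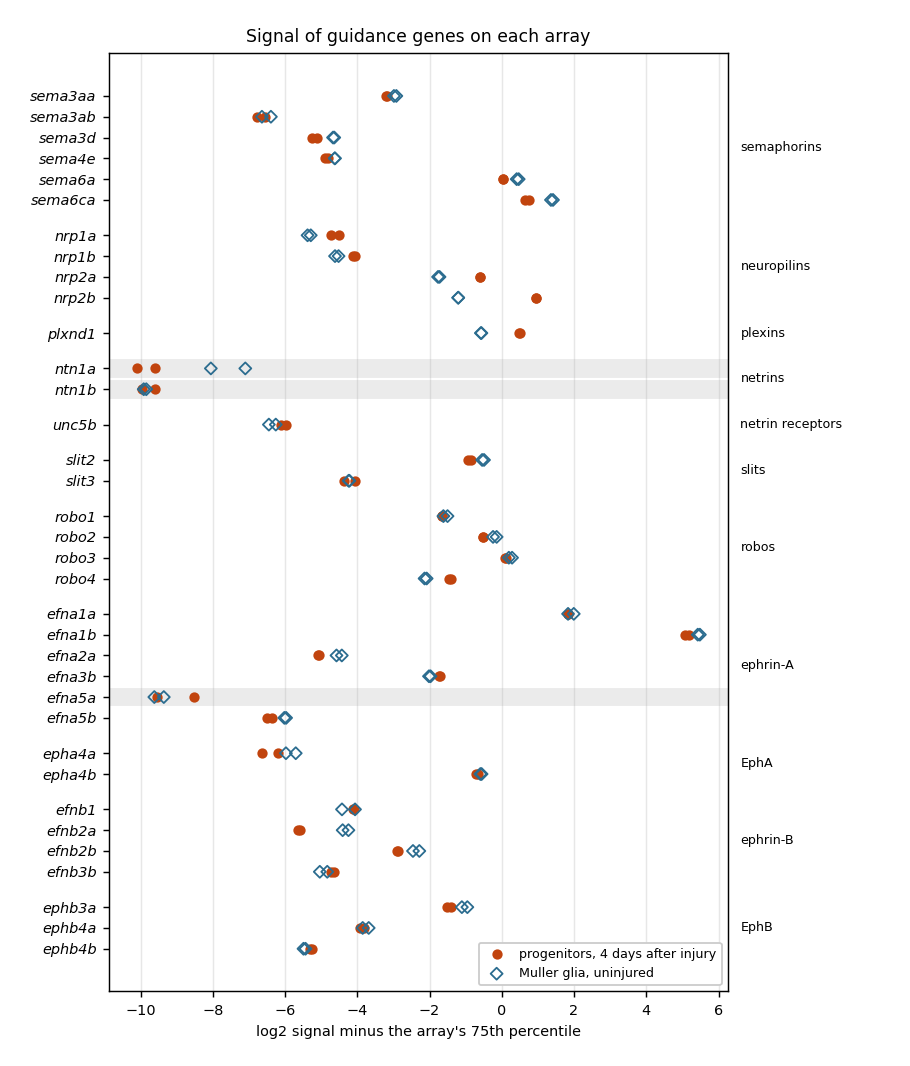
Log2 signal minus the array's 75th percentile for all 35 guidance genes on each array, with filled circles for progenitors and open diamonds for glia; grey bands mark the 3 genes that were not tested. Levels may be compared within a row only, since each row is a different probe. The circles of nrp2b sit at 0.95 and 0.93, well right of its diamonds at -1.21, and those of efnb2a at -5.58 and -5.65, left of its diamonds.

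The semaphorin system held 5 higher receptor genes and, on values scaled to the 75th percentile, 5 lower ligand genes. The nrp2b probe, which lies on sequence with no assigned chromosome in danRer2 (37096410 to 37096469, minus strand), read 0.95 and 0.93 in progenitors, against -1.21 and -1.21 in glia (log2 signal minus the 75th percentile). Its 2 progenitor arrays were the higher by far more than any replicate gap, a difference of 2.15 ± 0.04 (limma, adjusted p = 8.09e-05), and 165 of 7080 genes had a larger one. The paralog nrp2a read -0.59 and -0.60 in progenitors, against -1.77 and -1.72 in glia. That is a 2.22-fold increase (1.15 ± 0.04, limma, adjusted p = 0.00029). Neuropilin 2 binds class 3 semaphorins and vascular endothelial growth factors.

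The neuropilin 1 genes, which encode receptors for Sema3A and for VEGF, had smaller increases. On chromosome 24 (387996 to 388055, plus strand) nrp1a read -4.52 and -4.72 in progenitors, against -5.38 and -5.29 in glia, a 1.64-fold difference (0.71 ± 0.09, limma, adjusted p = 0.00437). A second nrp1a probe, shifted along the transcript by a single base, gave 0.75 ± 0.04. The nrp1b probe (chromosome 2, 45066555 to 45066614, minus strand) read -4.06 and -4.12 in progenitors, against -4.62 and -4.52 in glia, a difference of 0.48 ± 0.06 (limma, adjusted p = 0.00416). With normexp background correction both neuropilin 1 genes stood at about 0 (-0.0025 for nrp1a and -0.050 for nrp1b), while nrp2b and nrp2a remained called at 2.05 and 1.03.

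The only plexin among the members was plxnd1, whose product is best known as a semaphorin receptor of endothelial cells and of some immune cells. It read 0.50 and 0.49 in progenitors, against -0.58 and -0.56 in glia. The increase was 2.09-fold (1.06 ± 0.04, limma, adjusted p = 0.000307). Of the 5 genes in these 2 receptor classes, nrp2b, nrp2a and plxnd1 were called in the same direction under all 14 alternatives tried, and their lowest differences were 1.93, 0.93 and 0.84, each with median scaling. A plxna4 probe outside the members, found later through an older name, was lower (-0.65 ± 0.11, limma, adjusted p = 0.0107). With spike-in scaling plxna4 stood at 0.45.

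All 6 semaphorin genes had differences below 0, although with spike-in scaling all 6 stood above 0. Of these decreases 5 passed (83.3% of the class, against 40.4% of all genes). The largest was that of sema6ca, a transmembrane class 6 semaphorin (chromosome 13, 591538 to 591597, plus strand). It read 0.75 and 0.64 in progenitors, against 1.36 and 1.42 in glia, a 1.62-fold decrease (-0.69 ± 0.06, limma, adjusted p = 0.00184), and 0.41 with spike-in scaling. The related sema6a read 0.04 and 0.02 in progenitors, against 0.41 and 0.47 in glia (-0.41 ± 0.05, limma, adjusted p = 0.00349), and 0.69 with spike-in scaling. These 2 membrane-bound ligands kept their call with normexp, at -0.67 and -0.39.

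Among secreted class 3 semaphorins, sema3d read -5.27 and -5.13 in progenitors, against -4.64 and -4.67 in glia (-0.54 ± 0.06, limma, adjusted p = 0.00396). The sema3aa gene, for a zebrafish ortholog of the growth cone collapsing Sema3A, read -3.20 and -3.19 in progenitors, against -2.99 and -2.92 in glia. Its difference of -0.24 ± 0.05 passed with all arrays (limma, adjusted p = 0.0144), but the call was lost without glia replicate 2 (-0.21), progenitor replicate 1 (-0.24) or progenitor replicate 2 (-0.25). Its duplicate sema3ab did not pass (-0.16 ± 0.13), and its groups overlapped. The class 4 gene sema4e stood at -0.23 ± 0.05 and lost its call without glia replicate 1 (-0.23), glia replicate 2 (-0.23) or progenitor replicate 1 (-0.19). The sema4e call was also lost with an intensity trend (limma, adjusted p = 0.0588). With normexp the calls of sema3d, sema3aa and sema4e were lost at -0.76, -0.38 and -0.55, and with spike-in scaling the 3 genes stood at 0.56, 0.85 and 0.87.

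Ratios between 2 probes of an array do not depend on scaling by 1 constant, though they do depend on background correction, and they were taken for 7 pairs of duplicated genes without a test. The log2 ratio of nrp2b to nrp2a was 1.54 and 1.53 in progenitors, against 0.56 and 0.52 in glia, a change of 1.00, and 1.02 with normexp. That of nrp1a to nrp1b was -0.46 and -0.60 in progenitors, against -0.76 and -0.77 in glia, a change of 0.23 that was 0.047 with normexp. The groups overlapped for sema3aa to sema3ab alone among the 7 pairs. A lack of overlap is common on these arrays: 34.9% of all single genes lay wholly above and 53.1% wholly below. The ratio of ephb4b to ephb4a changed by 0.29 (-0.061 with normexp), that of epha4a to epha4b by -0.46 (-0.77 with normexp) and that of efna1b to efna1a by -0.25 (-0.27 with normexp).

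**Figure D3:**
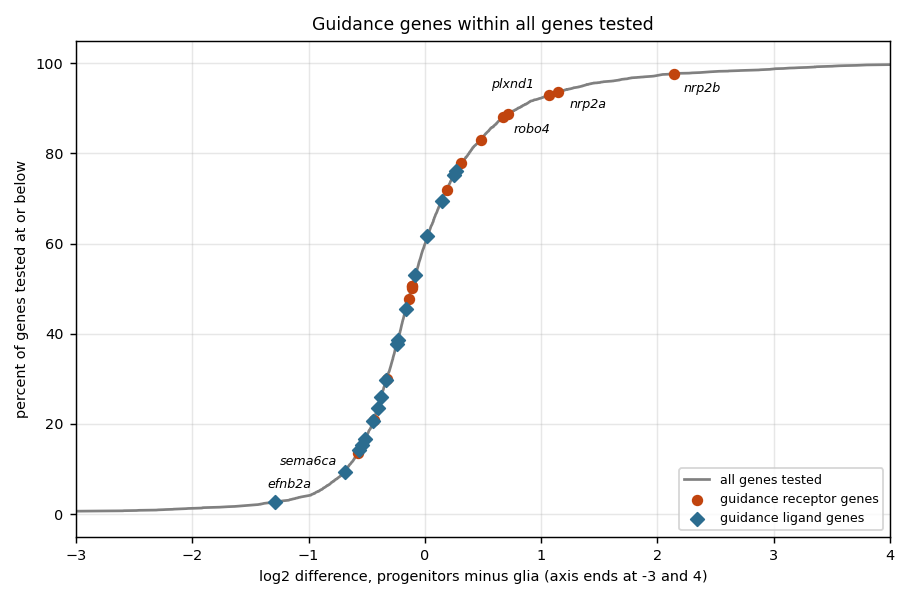
Percent of the 7080 tested genes (vertical axis) at or below each log2 difference, progenitors minus glia (horizontal axis, scaled to the 75th percentile, where spike-in scaling would move all points to the right), with guidance receptors as circles and ligands as diamonds. Of the guidance genes, nrp2b lies nearest the upper end, with 2.33% of genes above it, and efnb2a nearest the lower end, with 2.57% below it.

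Netrin genes were near or under the detection limit. The ntn1b probe was not well above background on any array. For ntn1a the signal was -10.09 and -9.59 in progenitors, not well above background on either array, against -8.06 and -7.10 in glia, where it was well above background on 1 of 2 arrays. It was not tested and no fold is given. The netrin receptor gene unc5b (chromosome 13, 22575583 to 22575642, plus strand) read -6.12 and -5.96 in progenitors, against -6.26 and -6.45 in glia. Unc5b mediates repulsion by netrin and is also known from endothelial cells. Its 2 groups did not overlap, but the difference of 0.31 ± 0.10 missed the threshold (limma, adjusted p = 0.0502), and over the alternatives it ran between -0.51 (normexp) and 1.41 (spike-in scaling). It passed under 6 of 14, which were spike-in scaling, quantile normalization, the deposited value table, the mean of probes, the filter for signal on all arrays, and without glia replicate 1 (0.41).

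In the slit and Robo system, slit2 and robo2 were slightly lower in progenitors and robo4 was higher, with slit2 and robo2 above 0 under spike-in scaling (0.72 and 0.77). The secreted repellent slit2 (chromosome 17, 3661637 to 3661696, minus strand) read -0.94 and -0.86 in progenitors, against -0.54 and -0.49 in glia (-0.38 ± 0.05, limma, adjusted p = 0.00587), and a second probe of the same transcript cluster gave -0.34 ± 0.10. The slit3 probe did not separate the groups (0.02 ± 0.11). The axonal receptor gene robo2 (chromosome 19, 39222928 to 39222987, minus strand) read -0.52 and -0.52 in progenitors, against -0.24 and -0.14 in glia. Its decrease of -0.33 ± 0.05 (limma, adjusted p = 0.00907) was matched by -0.36 ± 0.05 on a second probe, and its call ended with normexp (-0.30).

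For robo1, another axonal Robo gene, the difference was -0.11 ± 0.06 and did not pass. The brighter robo3 probe gave -0.14 ± 0.05 (limma, adjusted p = 0.0785) and the dimmer -0.27 ± 0.05 (adjusted p = 0.0143), so the call for robo3 depends on the probe.

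By contrast robo4, whose product is known mainly from vascular endothelium, read -1.46 and -1.42 in progenitors, against -2.14 and -2.08 in glia. This was a 1.59-fold increase (0.67 ± 0.05, limma, adjusted p = 0.00118), and a second probe gave 0.29 ± 0.06 (adjusted p = 0.0159). On the first probe the robo4 increase stood above 0 under every alternative tried and lost its call only with normexp (0.55, limma, adjusted p = 0.0512). Alternatives that changed only the filter, the intensity trend or the replicate block could not move the difference of 0.67. The second probe did not enter these values, the mean of probes included. On danRer2 the robo4 probe (chromosome 10, 23624864 to 23624923, minus strand) lies 19.8 kb from the brighter robo3 probe (23605025 to 23605084, plus strand).

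Of 9 tested ephrin genes 5 were lower (55.6%, against 40.4% of all genes), 1 was higher and 3 did not pass. Of 5 Eph receptor genes 1 was lower, 1 was higher and 3 did not pass (60.0%, against 32.0% of all genes). With spike-in scaling all of the lower ones but efnb2a stood above 0.

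Ephrin-B2, a transmembrane ligand of EphB receptors and of EphA4, marks arterial endothelium and also acts in neurons. The efnb2a probe (chromosome 9, 21003534 to 21003593, minus strand) read -5.58 and -5.65 in progenitors, against -4.25 and -4.41 in glia. The decrease was 2.45-fold (-1.29 ± 0.07, limma, adjusted p = 0.000735), and 182 of 7080 genes had a more negative difference. It stayed below 0 under all 14 alternatives, although those that changed only the filter, the intensity trend or the replicate block could not move it. The efnb2a call was lost with normexp (-1.21, limma, adjusted p = 0.0661) and with spike-in scaling (-0.19, adjusted p = 0.104). The duplicate efnb2b (chromosome 1, 2903481 to 2903540, plus strand) read -2.89 and -2.88 in progenitors, against -2.46 and -2.28 in glia (-0.52 ± 0.07, limma, adjusted p = 0.00663). A second efnb2b probe gave -0.40 ± 0.11, and the call on the first was lost with normexp (limma, adjusted p = 0.0898).

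Neither efnb1 (0.14 ± 0.14) nor efnb3b (0.25 ± 0.09) passed, and their second probes gave 0.15 ± 0.15 and 0.44 ± 0.18. The efnb1 difference passed at 0.32 without glia replicate 1 and was -0.038 without glia replicate 2, and that of efnb3b passed at 0.35 without glia replicate 2. Among duplicates, the log2 ratio of efnb2a to efnb2b was -2.69 and -2.77 in progenitors, against -1.79 and -2.12 in glia, with no overlap between groups.

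EphB receptors showed small differences. For ephb3a the signal was -1.52 and -1.41 in progenitors, against -1.11 and -0.95 in glia (-0.44 ± 0.08, limma, adjusted p = 0.0116). The ephb3a call was lost with normexp and without progenitor replicate 1 (-0.38), and the difference turned to 0.66 with spike-in scaling. The ephb4b probe read -5.30 and -5.25 in progenitors, against -5.43 and -5.49 in glia (0.19 ± 0.05, limma, adjusted p = 0.0330). That call was lost without any 1 of the 4 arrays (0.16 to 0.21) and with a replicate block (adjusted p = 0.0744), and the difference turned to -0.41 with normexp and -0.035 with median scaling. The ephb4b call was also lost with quantile normalization, an intensity trend, the deposited value table and no filter on dim probes. The duplicate ephb4a, whose product is the venous partner of ephrin-B2, overlapped between groups (-0.11 ± 0.08).

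Ephrin-A ligands are tethered to the membrane by a lipid anchor and are classically graded across the optic tectum. The brightest efna2a probe (chromosome 10, 31372671 to 31372730, minus strand) read -5.08 and -5.07 in progenitors, against -4.43 and -4.58 in glia (-0.57 ± 0.07, limma, adjusted p = 0.00382). The other efna2a probes, 23.1 kb away on danRer2, gave -0.26 ± 0.08 and 0.09 ± 0.12, and the mean of the 3 was -0.25. The efna5b probe read -6.37 and -6.51 in progenitors, against -6.02 and -5.97 in glia (-0.45 ± 0.07, limma, adjusted p = 0.0075), a call lost with the deposited value table (-0.29, adjusted p = 0.159) and with normexp (-0.77, adjusted p = 0.341). The efna2a call was lost with normexp too (-0.805, limma, adjusted p = 0.154). With spike-in scaling efna2a and efna5b stood at 0.53 and 0.65.

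For efna1b the probe carries the older name crsp6 in the scanner files, the name of another gene, and only its accession points to efna1b. It gave -0.33 ± 0.06 (limma, adjusted p = 0.0140), a call lost with normexp (-0.31) and without glia replicate 1 (-0.30). A second probe of the cluster gave -0.04 ± 0.06, so the direction of efna1b is uncertain. The only higher ephrin was efna3b (chromosome 16, 23459974 to 23460033, plus strand), at -1.74 and -1.72 in progenitors, against -2.02 and -1.97 in glia. Its increase of 0.27 ± 0.04 (limma, adjusted p = 0.0092) lost its call with median scaling (0.05), quantile normalization (0.14) and normexp (0.16). The efna1a gene did not pass (-0.08 ± 0.07, with a second probe at 0.04), and efna5a was not well above background on any array.

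EphA4 receptors, which bind ephrins of both types, did not pass in the fit reported here. The epha4a difference of -0.58 ± 0.18 carried the widest error among the tested guidance genes (limma, adjusted p = 0.0537). It passed as lower under 6 of 14 alternatives, between -0.52 (mean of probes) and -0.80 (median scaling), among them without progenitor replicate 2 (-0.79), and stood at 0.52 with spike-in scaling. For epha4b the difference stood at -0.11 ± 0.05.

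**Figure D4:**
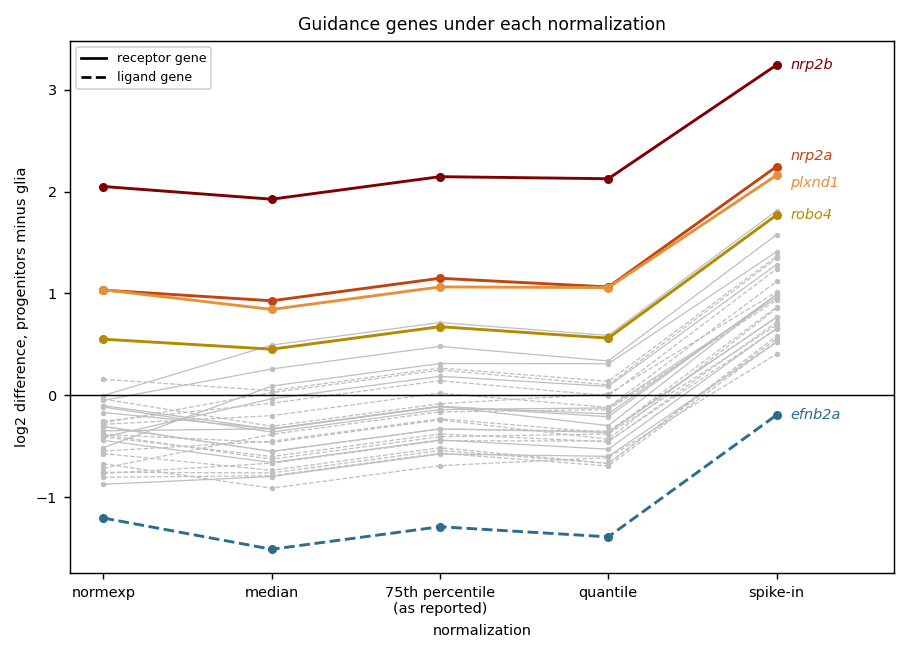
Log2 difference, progenitors minus glia (vertical axis), of the 32 tested guidance genes under 5 ways of correcting and scaling the arrays (horizontal axis), with receptors as solid and ligands as dashed lines. The lines of nrp2b, nrp2a, plxnd1 and robo4 stay above 0 and that of efnb2a below 0 under all 5, whereas spike-in scaling lifts 19 genes across 0.

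Spike-in scaling reversed the sign of 19 of the 32 tested guidance genes, while median scaling and quantile normalization reversed 3 each. Of all genes called, 40.5% were higher with 75th percentile scaling, against 23.3% with median scaling and 97.6% with spike-in scaling. Spike-in controls were dimmer on the progenitor arrays, with median signals of 2875 and 2842, against 5281 and 5736 on the glia arrays. Over tested probes, spike-in scaling moved the median difference by 1.097 and median scaling by -0.22 on the log2 scale.

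Downstream and partner genes of guidance signalling, such as small GTPases, kinases, cofilins, adhesion molecules and repulsive guidance molecules, were taken from a list. Of 133 listed genes 59 had a named probe and 54 were tested. Of these 16 were higher (29.6%), 19 were lower (35.2%) and 19 did not pass, with a median of -0.09, near the 27.5% higher, 40.4% lower and median of -0.11 of all genes. The receptor tyrosine kinase gene met, whose product can pair with plexins, rose by 2.15 ± 0.06, and its signal was -2.84 and -2.83 in progenitors, against -5.05 and -4.93 in glia. The GTPase gene rac2, known from blood cells, rose by 1.49 ± 0.05. By adjusted p, decreases were led by cfl1l (-2.14 ± 0.04), a cofilin-like gene, with cfl2 at -0.67 ± 0.05 and ablim3, an actin-binding LIM protein gene, at -0.82 ± 0.06. Spike-in scaling adds 1.097 to each difference, which exceeds the size of the cfl2 and ablim3 decreases.

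Markers of other cell types moved in both directions with 75th percentile scaling, and their part in these results was not tested. Leukocyte markers were mostly higher, endothelial and ganglion cell markers were mixed, and several other lists were mostly lower. In bulk samples, fewer cells of a type and less RNA per cell cannot be told apart. Of 14 listed endothelial markers 6 were measured: cldn5b (1.67 ± 0.04), tie1 (1.22 ± 0.06) and cdh5 (0.26 ± 0.05) were higher, tek (-0.59 ± 0.05) and plvapb (-0.46 ± 0.06) were lower, and erg did not differ past the threshold (-0.01 ± 0.07). Their summed signal, in units of the 75th percentile, was 2.33 and 2.31 in progenitors, against 1.38 and 1.34 in glia. No listed endothelial marker with a probe was under background on all arrays.

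Microglia and leukocyte markers were higher for 10 of 11 tested genes (90.9%, against 27.5% of all genes) with 0 lower. Their summed signal was 95.6 and 88.9 in progenitors, against 38.0 and 37.8 in glia. Of the 12 with a probe, mpx was not well above background on any array. Retinal ganglion cell markers, the cells whose axons these cues guide, had 4 higher and 4 lower genes of 8, with summed signals of 28.1 and 26.7 in progenitors, against 28.4 and 27.4 in glia. Among the ganglion cell markers atoh7, which also marks neurogenic progenitors, stood at 1.75 ± 0.07.

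Several other marker lists had mostly lower genes on values scaled to the 75th percentile, against 40.4% lower among all genes. Their part in the ligand differences was not tested. Erythrocyte markers were lower for 6 of 6 tested genes, with summed signals of 32.9 and 33.8 in progenitors, against 65.0 and 64.2 in glia. Cone markers were lower for 13 of 13, summing to 405 and 411 in progenitors, against 719 and 703 in glia. Epithelial markers were lower for 9 of 11, with a median difference of -4.05, and higher for 2. Their sums were 14.1 and 13.8 in progenitors, against 25.6 and 25.5 in glia, and most of the progenitor sum came from krt8, 1 of the 2 higher genes (1.69). Rod markers were lower for 7 of 8, amacrine, horizontal and bipolar cell markers for 7 of 11 and oligodendrocyte markers for 5 of 6, while pigment epithelium markers had 1 higher and 1 lower gene of 3.

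**Figure D5:**
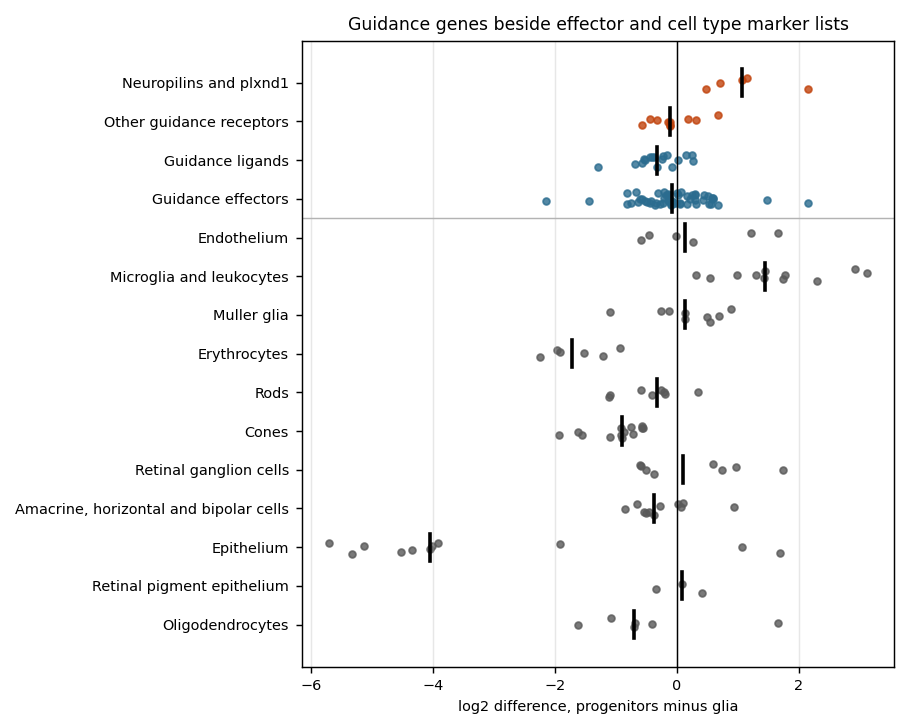
Log2 differences, progenitors minus glia (scaled to the 75th percentile; horizontal axis), of guidance genes, guidance effectors and cell type marker lists, with 1 point a gene, spread vertically for visibility, and a black bar at each median. Neuropilins and plxnd1 lie between 0.48 and 2.15, within the range of leukocyte markers (0.31 to 3.13). That span overlaps the ranges of endothelial markers (-0.59 to 1.67) and effectors (up to 2.15). It also overlaps those of ganglion cell (up to 1.75), epithelial (1.69), oligodendrocyte (1.66), amacrine, horizontal and bipolar cell (0.93) and Muller glia (0.88) markers. Guidance ligands centre on -0.33, which spike-in scaling turned to 0.76.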

How the data were processed

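RNA of each sample was hybridised to 1 array of design 015064, and all 4 arrays share 1 slide and 1 scan. Per the file headers, Feature Extraction 9.5.3.1 made the deposited spot intensity, subtracting background and detrending within each array, with nothing adjusted between arrays; the submitters' processing notes name version 9.1. A deposited table of intensity values equalled the background-subtracted signal of 1 spot per probe for 100% of 21495 values on each array (relative tolerance 0.001), so it is linear, uncentred and not normalized. Its medians were 467 and 488 on the progenitor arrays and 356 and 360 on the glia arrays.

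Here control and outlier spots were left out, saturated spots kept, log2 processed signal was reduced by each array's 75th percentile, and replicate spots were averaged. Testing was limited to probes well above background on both arrays of at least 1 group (16596 probes). limma 3.58.1 in R 4.3.3 (lmFit, eBayes, 3.93 degrees of freedom) compared the groups, with Benjamini-Hochberg adjustment over all probes and a threshold of 0.05, and was tested on simulated data. Errors of differences are standard errors. The probe with the highest mean stood for its gene.

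Of the member probes, 37 were named through RefSeq accessions in the GRCz12tu gene table and 4 by the name in the file. Positions are those of the scanner files on danRer2, counted from 1; exon or UTR annotation was not used here. Second probes share an accession with a member probe. Same-numbered arrays did not deviate together (r = 0.06), so the replicate block is an alternative only.

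Members and lists were chosen with earlier results of these data known. Per-array values are given for members with at least a 2-fold difference and for up to 2 per class and direction by adjusted p, other members by difference, and 3 effectors per direction by adjusted p, of which 1 is not reported here.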

Additional observations from a re-analysis of the deposited data

How the results depend on the processing

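Each of the 32 tested genes was refitted under 14 alternatives. Those that changed only the filter, the intensity trend or the replicate block left each difference as it was and could change only its error and adjusted p. Normexp called 0 ligands and 3 receptors higher and 3 ligands and 0 receptors lower; under median scaling these were 0, 6, 13 and 7, under quantile normalization 0, 7, 11 and 6, and under spike-in scaling 16, 14, 0 and 0, against 1, 7, 11 and 2 in the report. Lower receptors numbered 4 with an intensity trend and 4 with the mean of probes, where 44.0% and 42.2% of all genes were lower. Over all genes, 821 were higher and 1152 lower with normexp, against 1949 and 2863 in the report. These counts were 1298 and 4280 (60.5% lower) with median scaling and 1943 and 2763 with quantile normalization. With spike-in scaling they were 6550 and 161. Leaving out 1 array gave 1 to 2 higher and 9 to 10 lower ligands, 6 to 7 higher and 1 to 3 lower receptors, and 1614 to 1651 higher and 2132 to 2387 lower genes.

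With the replicate block, which is no sign of pairing here, 2 ligands were higher (efnb3b joining at adjusted p = 0.0434), the ephb4b call was lost, and the other 30 genes kept their call.

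Spike-in scaling turned these differences above 0: sema3aa 0.85, sema3ab 0.93, sema3d 0.56, sema4e 0.87, sema6a 0.69, sema6ca 0.41, slit2 0.72, robo1 0.99, robo2 0.77, robo3 0.96, efna1a 1.01, efna1b 0.76, efna2a 0.53, efna5b 0.65, epha4a 0.52, epha4b 0.98, efnb2b 0.58, ephb3a 0.66 and ephb4a 0.99. Its construction shows the cause, a shift of all genes. Normexp turned nrp1a to -0.0025, nrp1b to -0.050, unc5b to -0.51, slit3 to -0.29, efnb1 to -0.25, efnb3b to -0.27 and ephb4b to -0.41, and 12 further calls were lost; the cause was not tested. Median scaling turned slit3 to -0.20, efnb1 to -0.078 and ephb4b to -0.035, and quantile normalization turned slit3 to -0.12, efnb1 to -0.0052 and efna1a to 0.013. Leaving out 1 array, slit3 ran between -0.13 (without progenitor replicate 1) and 0.17, and efnb1 between -0.038 (without glia replicate 2) and 0.32. With 2 arrays a group, the number of arrays limits the precision.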

Other observations

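Besides the member probes, 6 probes carry clone or older names that now belong to guidance genes; they were found after the members' values had been seen. The probe for sema7a, a lipid-anchored semaphorin, read -2.17 and -2.10 in progenitors, against -0.98 and -1.11 in glia, a 2.13-fold decrease (-1.09 ± 0.07, limma, adjusted p = 0.000859). The plxna4 probe, for a plexin that pairs with neuropilins, read -4.19 and -4.15 in progenitors, against -3.67 and -3.37 in glia (-0.65 ± 0.11, limma, adjusted p = 0.0107), the opposite direction to plxnd1 on the same arrays. With spike-in scaling sema7a stood at 0.0068 and plxna4 at 0.45. A second epha4a probe was not well above background in progenitors, at -7.55 and -7.70, against -7.26 and -7.07 in glia, at least 1.18-fold lower (limma, adjusted p = 0.0168), though at 0.64 with spike-in scaling. For sema5a the progenitor arrays themselves differed, at -5.28 and -4.39, against -5.19 and -5.20 in glia. The probes of epha7 and ephb2b were not well above background on any array.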
